A study of Serapias vomeracea and Serapias vomeracea
Tulasnella calospora with 6 samples.

Results

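Of 205249 contigs assembled from protocorms of the orchid Serapias vomeracea, 74 were clearly read without a fungal partner. On total reads they were lower, but still read, in protocorms that housed the fungus Tulasnella calospora. A contig is an assembled stretch of transcript. The 74 were chosen from their levels in CPM, a read count scaled to the summed total reads of the library. Total reads include reads shared with other contigs, and 63 of the 74 had reads unique to them in both groups. For the others, presence in both groups rests on shared reads. Each was at least 300 bp long and reached 10 CPM in each of the 3 asymbiotic libraries and 1 CPM in each of the 3 mycorrhizal ones. The lowest asymbiotic library was also at least 3 times the highest mycorrhizal one. The sizes of these falls were thus fixed in part by the choice, and they are given as a description with no test.

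The asymbiotic group held protocorms raised on modified BM1 medium, and the mycorrhizal group held protocorms raised on oat medium together with mycelium of Tulasnella calospora. Both kinds grew in darkness at 20 °C, were achlorophyllous and were taken at a stage labelled P2. Each group has 3 libraries labelled as biological replicates. The reference was assembled from asymbiotic reads alone, and the mycorrhizal libraries also held fungal reads, so a transcript found only in mycorrhizal tissue is not represented here. Medium and fungus change together, so their parts cannot be told apart. The labels used here give neither a genotype nor the number of protocorms in a library. The files pair no contig with a gene name, so no gene function is given and the tissue could not be checked against marker genes. Contigs are called here by their lengths, which are all different among the 74, and identifiers are given for 2.

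Orchid seeds carry almost no food reserve, and the embryo swells into a protocorm that in nature lives on carbon and nutrients from a mycorrhizal fungus. The fungus forms coils of hyphae, called pelotons, inside cells of the protocorm, and the plant later digests them. An asymbiotic protocorm is fed by the medium instead. A transcript that is lower in mycorrhizal tissue may be less abundant per cell or come from fewer cells, and bulk RNA does not tell these apart.

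Library totals ranged from 87991285 to 109869317 reads in asymbiotic and from 174635344 to 216364014 in mycorrhizal replicates. The 74 contigs are also called members, and the least read member in a library still had 178 reads, in mycorrhizal replicate 3. The number of contigs with a read differed between libraries of a group, and mycorrhizal replicate 3 stood apart. Mycorrhizal replicate 3 had a read on 51806 contigs, against 108857 and 116372 in the other 2 mycorrhizal libraries. Asymbiotic replicate 2 had the fewest in its group, 83622, against 126093 and 164346, but these 3 values were spread about evenly. Leaving mycorrhizal replicate 3 out of the rule gave 220 contigs in place of 74. Without mycorrhizal replicate 1 or 2 the rule gave 183 or 113, and without asymbiotic replicate 1, 2 or 3 it gave 153, 98 or 101. All 74 were among them each time, since leaving out a library only removes a condition. Over the 74, the median log2 ratio of mycorrhizal to asymbiotic mean CPM was -2.68. It was -2.75 without mycorrhizal replicate 3 and -2.59 without asymbiotic replicate 2.

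The 74 contigs together took 3.23%, 3.81% and 3.75% of all reads in asymbiotic replicates 1 to 3. All reads here means the total reads counted on contigs, summed per library. In mycorrhizal replicates 1 to 3 they took 0.357%, 0.354% and 0.337%. Without mycorrhizal replicate 3 the mycorrhizal mean was 0.355%, and without asymbiotic replicate 2 the asymbiotic mean was 3.49%. The mycorrhizal libraries lay closer together than the asymbiotic ones, with means of 0.349% ± 0.0109 and 3.60% ± 0.318 (SD, n = 3 each). The median contig went from 48.8 CPM to 7.33 CPM, as group means. Over the 74 contigs the asymbiotic mean was 3.51 to 46.0 times the mycorrhizal mean, with a median of 6.39 times. The difference was at least 4-fold for 71 contigs, at least 10-fold for 16 and at least 16-fold for 4. Put another way, a contig kept between 2.18% and 28.5% of its asymbiotic level, with a median of 15.6%. Among the 9055 contigs that met the same length and CPM floors without the 3-fold gap, the median contig kept 97.1%.

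**Figure D1:**
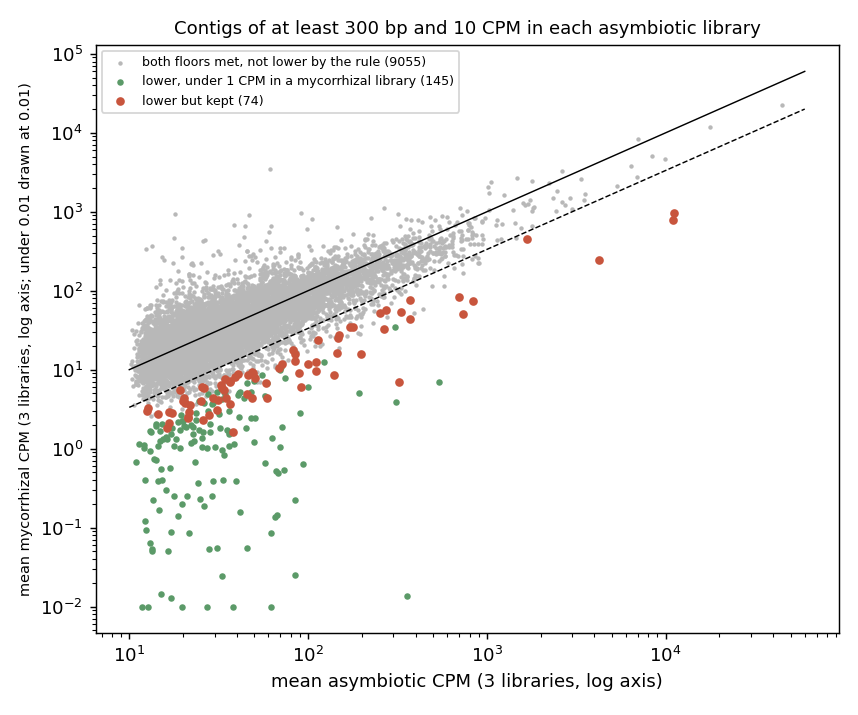
Mean mycorrhizal CPM against mean asymbiotic CPM, both on log axes, for contigs of at least 300 bp and 10 CPM in each asymbiotic library. Each point is a contig, the solid line marks equal levels and the dashed line a 3-fold lower mycorrhizal level. The 74 lower but kept contigs lie below the dashed line at asymbiotic levels from 12.6 to 11202 CPM, and 145 contigs that also fell under 1 CPM in a mycorrhizal library reach further down, with values under 0.01 CPM drawn at 0.01.

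The reads were very unevenly spread over the 74 contigs. The contig of 1886 bp stood at 10549, 12106 and 10950.2 CPM in asymbiotic replicates 1 to 3 and at 908, 1069 and 953 CPM in mycorrhizal replicates 1 to 3. Its means were 11202 ± 809 and 976 ± 83.4 CPM (SD, n = 3 each), 11.5 times apart. The contig of 1390 bp stood at 9402, 11533 and 12037 CPM in the asymbiotic libraries and at 828, 709 and 817 CPM in the mycorrhizal ones. Its group means of 10991 ± 1399 and 785 ± 65.5 CPM (SD, n = 3 each) were 14.0 times apart. In both contigs the replicates of a group lay far closer to each other than to the other group. These 2 contigs alone held 61.7% ± 0.347 of the reads on the 74 in asymbiotic libraries and 50.5% ± 1.98 in mycorrhizal ones (SD, n = 3 each). Without them, the remaining 72 contigs took 1.38% ± 0.123 and 0.173% ± 0.0121 of all reads (SD, n = 3 each). The 10 contigs with the highest asymbiotic CPM held 87.3% ± 0.561 of the reads on the 74 in asymbiotic and 81.3% ± 2.76 in mycorrhizal libraries (SD, n = 3 each).

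Per length, the contig of 1390 bp was the most abundant, at 7907 ± 1006 RPKM in asymbiotic and 564 ± 47.2 RPKM in mycorrhizal protocorms (SD, n = 3 each). RPKM relates reads to contig length as well as to the library total. The contig of 1886 bp followed at 5939 ± 429 and 518 ± 44.2 RPKM, and a contig of 865 bp was next at 4881 ± 460 and 284 ± 32.4 RPKM (SD, n = 3 each). Over the 74 contigs the asymbiotic mean ran from 5.60 to 7907 RPKM, and the mycorrhizal mean from 1.20 to 564 RPKM. The order of levels was largely carried over between the groups, with a Spearman's rho of 0.94 across the 74 contigs on the RPKM scale. That value is a description, since all contigs share the same 6 libraries and were chosen on the same levels.

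The 4 most read contigs included a further pair with unlike falls. The contig of 865 bp stood at 3763, 4431 and 4471 CPM in asymbiotic replicates 1 to 3 and at 261, 213 and 262 CPM in mycorrhizal replicates 1 to 3, 17.2 times apart as means. The contig of 2224 bp stood at 1673, 1785 and 1561 CPM in asymbiotic and 437, 437 and 473 CPM in mycorrhizal libraries, 3.73 times apart. The latter lost much less of its level, and its mycorrhizal libraries were the most alike of all 74, with a coefficient of variation of 4.70%. Of the other 6 among the 10 most read, the contig of 890 bp went from 735 ± 102 to 50.7 ± 14.9 CPM (SD, n = 3 each). The contig of 437 bp went from 838 ± 309 to 73.9 ± 65.3 CPM (SD, n = 3 each). Its mycorrhizal values of 33.7, 149 and 38.6 CPM were far apart, with replicate 2 the high one. The contig of 492 bp had 648, 669 and 787 CPM in asymbiotic and 92.2, 112 and 47.6 CPM in mycorrhizal libraries. Replicate 3 was the low mycorrhizal library there. The contig of 3558 bp had 301, 386 and 306 CPM in asymbiotic and 35.0, 52.5 and 73.8 CPM in mycorrhizal libraries, and 0.0935% of its reads were unique.

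**Figure D2:**
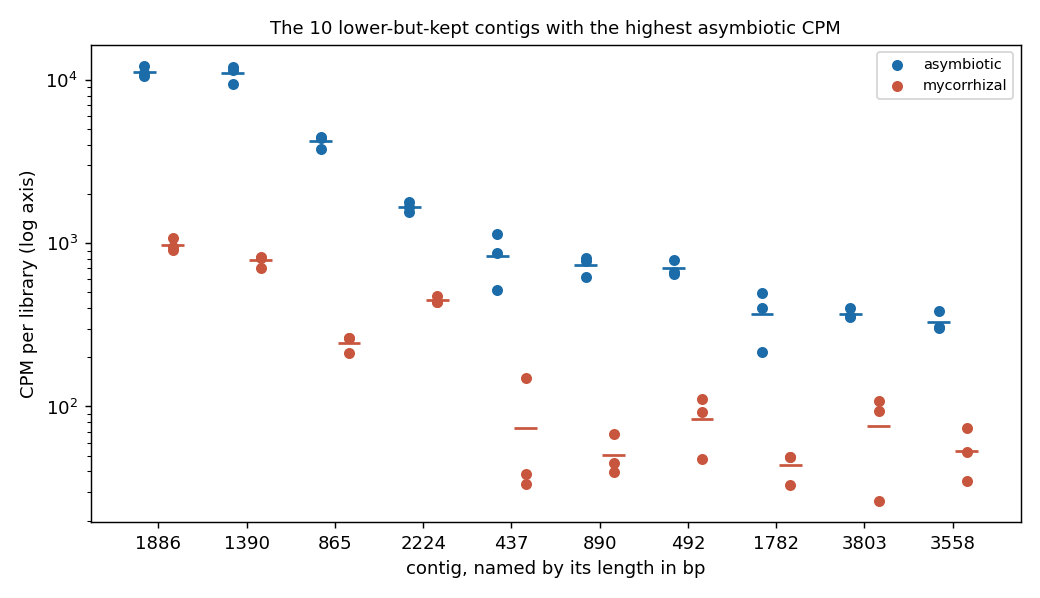
CPM per library on a log axis for the 10 lower but kept contigs with the highest asymbiotic CPM, named by length in bp. Points are libraries, 3 per group, and short lines are group means. The groups lie furthest apart for the contig of 865 bp, at 17.2 times, and least for that of 2224 bp, at 3.73 times.

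On total reads the deepest relative fall was found for TRINITY_DN62870_c2_g1_i1, a contig of 684 bp. It had 375, 316 and 282 CPM in asymbiotic replicates 1 to 3 and 9.30, 3.93 and 7.94 CPM in mycorrhizal replicates 1 to 3. Its means of 324 ± 46.7 and 7.06 ± 2.79 CPM (SD, n = 3 each) were 46.0 times apart, a log2 ratio of -5.52. On unique reads its log2 ratio was -6.55, with 1.07% kept. That value rests on mycorrhizal replicate 1, since mycorrhizal replicates 1 to 3 had 425, 4 and 1 unique reads. Several contigs with few unique reads stood lower. Those of 2337 and 797 bp were at -7.39 and -7.26, and that of 1440 bp kept 0.522%. These values rest on 1, 6 and 2 unique reads summed over the mycorrhizal libraries, so their order is not firm. Others, such as the contig of 1373 bp, had no unique read in any mycorrhizal library. Next on total reads came TRINITY_DN76872_c1_g2_i1, a contig of 338 bp and of far lower level. It had 25.6, 49.2 and 39.2 CPM in asymbiotic and 1.83, 1.53 and 1.54 CPM in mycorrhizal libraries, with means of 38.0 ± 11.8 and 1.63 ± 0.171 CPM (SD, n = 3 each), 23.3 times apart. These mycorrhizal values rest on 396, 302 and 269 total reads, of which 7, 19 and 0 were unique to the contig. In asymbiotic replicates 1 to 3 it had 92, 0 and 196 unique reads. Its level in asymbiotic replicate 2 and mycorrhizal replicate 3 thus rests on shared reads alone. Over all 6 libraries together, 2.58% of its reads were unique to it, against 18.5% for the contig of 684 bp. The 5 deepest falls also held the contig of 865 bp and contigs of 2908 bp and 1656 bp, which kept 6.06% and 6.58% of their asymbiotic level. For the contig of 1656 bp the log2 ratio was -3.93, and it was -5.04 without mycorrhizal replicate 3 and -6.10 on unique reads, so its place in the order is not firm. At the other end, the contig of 2696 bp kept the most, at 28.5%. It had 17.4, 19.4 and 21.2 CPM in asymbiotic and 5.56, 5.75 and 5.21 CPM in mycorrhizal libraries.

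More abundant contigs were not the ones that kept more of their level. Among the 24 contigs with an asymbiotic mean of at least 100 CPM, the median difference was 8.42-fold. It was 6.48-fold among the 29 contigs between 30 and 100 CPM and 6.21-fold among the 21 below 30 CPM. The floor of 1 CPM limits how far a contig of low level could fall and stay among the 74. The order of these medians thus follows in part from the choice, and nothing is read from it. Only 4 contigs stayed above 100 CPM as a mycorrhizal mean, those of 1886, 1390, 865 and 2224 bp. In 47 of the 74 the mycorrhizal mean was below 10 CPM.

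The assembler groups contigs that share sequence into a Trinity gene, and the 74 contigs belonged to 70 such genes. For 18 of them the contig was the only one of its gene with a read. The other 56 lay in genes of 2 to 9 contigs with reads. There the reads of the whole gene show whether the other contigs were lower too. In 16 of the 56 the gene total also had the 3-fold gap between the lowest asymbiotic and the highest mycorrhizal library, and in 40 it did not. Counted with the single-contig genes, 34 of the 74 contigs thus belonged to a gene whose total fell by that gap. Among all 9750 Trinity genes that reached 10 CPM in each asymbiotic and 1 CPM in each mycorrhizal library, 0.472% had such a gap. The contigs are part of these totals, so nothing is read from the difference between the counts.

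**Figure D3:**
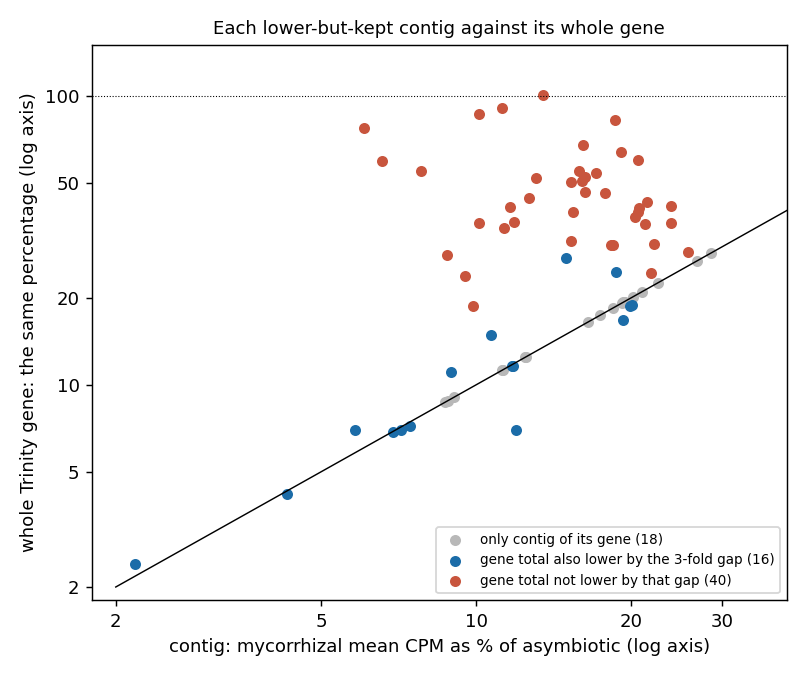
Level kept by each of the 74 contigs, as mycorrhizal mean CPM in percent of asymbiotic mean CPM, against the same percentage for its whole Trinity gene, on log axes. The solid line marks equal percentages and the dotted line a gene total at 100%. The 18 grey points are alone in their gene and lie on the line by construction, the 16 blue points lie on or to either side of it, and the 40 red points lie above it, up to 100.4%.

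The 18 contigs that were alone in their gene were short, with a median of 604 bp, and mostly unique in their reads, with a median of 99.2%. They took 1.47% ± 0.107 of all reads in asymbiotic and 0.166% ± 0.0143 in mycorrhizal libraries (SD, n = 3 each), most of it from the contig of 1886 bp. They kept a median of 17.9% of their level, from 8.72% in the contig of 1886 bp to 28.5% in that of 2696 bp. Between these ends, the contig of 1044 bp had 206, 161 and 168 CPM in asymbiotic and 53.2, 27.5 and 22.6 CPM in mycorrhizal libraries. The contig of 897 bp had 149, 184 and 182 CPM against 47.0, 49.5 and 7.51 CPM. Mycorrhizal replicate 3 was thus far below the other 2 for the latter. A contig of 583 bp, among the least abundant, had 13.3, 15.0 and 21.6 CPM in asymbiotic and 1.75, 3.39 and 1.11 CPM in mycorrhizal libraries. On unique reads alone all 18 kept the 3-fold gap.

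The 16 contigs whose whole gene fell were the most deeply lowered of the 3 kinds, with a median of 11.2% kept by the contig and 11.3% by the gene. That gene total includes the contig, so the order of the kinds follows in part from how they were set apart. They took 1.79% ± 0.213 of all reads in asymbiotic and 0.129% ± 0.00886 in mycorrhizal libraries (SD, n = 3 each). Their median share of the reads of their gene was 72.5% in asymbiotic and 69.6% in mycorrhizal protocorms, while single members moved both ways. The contig of 987 bp went from 86.1% to 60.1% of its gene, and that of 2716 bp from 86.9% to 100% (means of 3 libraries). The clearest case is the gene that holds the contigs of 1390, 865 and 492 bp, the only gene with 3 members and with no further contig. The 3 contigs kept 7.14%, 5.82% and 12.0% of their level. Unique reads made up 98.2%, 97.2% and 99.9% of their totals, so the 3 falls were counted largely on separate reads. The contigs took 69.0%, 26.6% and 4.42% of the gene's reads in asymbiotic and 70.4%, 22.0% and 7.62% in mycorrhizal protocorms, as means over 3 libraries. A second gene held 2 members, of 1782 and 1974 bp, which kept 11.8% and 11.7%. They had 216, 403 and 493 CPM and 58.1, 97.5 and 143 CPM in asymbiotic replicates 1 to 3. In mycorrhizal replicates 1 to 3 they had 49.1, 32.9 and 49.1 CPM and 6.94, 8.93 and 19.1 CPM. Both were lowest in replicate 1 among the asymbiotic libraries, and 14.7% and 19.3% of their reads were unique. The contig of 1886 bp and that of 437 bp lay in different genes of 1 Trinity cluster, a wider grouping, and kept 8.72% and 8.81%. The latter value rests on mycorrhizal replicate 2, and the log2 ratio of the contig of 437 bp went from -3.50 to -4.53 without it.

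In the remaining 40 contigs the gene total lacked the gap that the contig had, so a lower share of the gene is largely fixed by how they were set apart. They kept a median of 16.1% of their level while their genes kept a median of 42.2%, from 18.8% to 100.4%. Their median share of the gene's reads was 47.5% in asymbiotic and 12.9% in mycorrhizal protocorms. These contigs were longer, with a median of 1612 bp, came from genes with a median of 5 contigs, and had a median of 3.50% unique reads. They took 0.340% ± 0.0226 of all reads in asymbiotic and 0.0534% ± 0.00671 in mycorrhizal libraries (SD, n = 3 each). In 35 of the 40 the gene total was still lower in every mycorrhizal than in every asymbiotic library, and in 5 the gene totals of the groups overlapped. Among the 9750 Trinity genes at the same floors, 20.1% were lower without overlap. The contig's own fall is part of its gene total, so nothing is read from the count of 35.

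Over all 56 contigs in genes of several contigs, the contig's share of its gene was lower in every mycorrhizal library than in every asymbiotic one in 39. It was higher without overlap in 2 and overlapped in 15. Among the 6812 contigs at both CPM floors in genes of several contigs, 10.4% had a lower share without overlap and 13.9% a higher one. The contig's own reads enter the share, so the count of 39 follows in part from the choice of contigs. The rest of the gene, with the contig's own reads taken out, was lower without overlap in 28 of the 56, higher without overlap in 5 and overlapping in 23. Among the 6812 contigs these outcomes were found for 21.1% (lower) and 9.75% (higher). For 7 of the 56 the rest still held another member of the same gene, so the count of 28 is also fixed in part by the choice. Contigs of a gene can share reads, and the sources used here do not say how shared reads were divided among contigs.

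The 5 contigs whose gene total fell least show what this looked like. The contig of 2089 bp, in a gene of 9 contigs, had 24.1, 18.4 and 22.4 CPM in asymbiotic and 2.22, 2.76 and 3.79 CPM in mycorrhizal libraries. Its gene as a whole stood at 50.7 ± 7.29 and 51.0 ± 5.18 CPM (SD, n = 3 each), the same level within the spread between replicates. The contig's share of the gene went from 42.8% ± 5.02 to 5.68% ± 1.10 (SD, n = 3 each). A contig of 2323 bp of the same gene had 19.4, 1.36 and 16.1 CPM in asymbiotic and 23.4, 37.2 and 6.75 CPM in mycorrhizal libraries, so it did not separate the groups. The contig of 1373 bp went from 36.6 ± 6.88 to 3.70 ± 2.22 CPM, while its gene stood at 54.7 ± 7.58 and 47.0 ± 7.37 CPM (SD, n = 3 each). In the same gene a contig of 1429 bp had 8.51, 1.78 and 4.94 CPM in asymbiotic and 32.4, 24.2 and 28.1 CPM in mycorrhizal libraries. The latter 3 values were all above the former 3, the opposite order to that of the contig of 1373 bp.

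The contig of 2908 bp had 174, 137 and 109 CPM in asymbiotic and 8.38, 4.46 and 12.6 CPM in mycorrhizal libraries. Its gene went from 504 ± 107 to 388 ± 103 CPM (SD, n = 3 each), with overlapping libraries, and its share of the gene from 27.8% ± 2.56 to 2.10% ± 0.507 (SD, n = 3 each). The most read contig of that gene, of 2924 bp, had 214, 129 and 130 CPM in asymbiotic and 168, 87.9 and 397 CPM in mycorrhizal libraries, so the groups overlapped. The contig of 2852 bp went from 84.0 ± 27.1 to 15.7 ± 5.02 CPM (SD, n = 3 each), and the contig of 3063 bp beside it stood at 251 ± 23.6 and 251 ± 102 CPM (SD, n = 3 each). The contig of 2337 bp was the least even of all 74 among asymbiotic libraries, with 82.5, 277 and 76.0 CPM, and had 23.8, 17.8 and 7.15 CPM in mycorrhizal ones. A contig of 2155 bp of its gene ran the other way among the asymbiotic libraries, with 224, 36.4 and 233 CPM, and had 220.3, 189 and 385 CPM in the mycorrhizal ones. Asymbiotic replicate 2 was thus high for the first and low for the second, while their gene stood at 309, 353 and 313 CPM. Without that library the log2 ratio of the contig of 2337 bp went from -3.16 to -2.28.

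**Figure D4:**
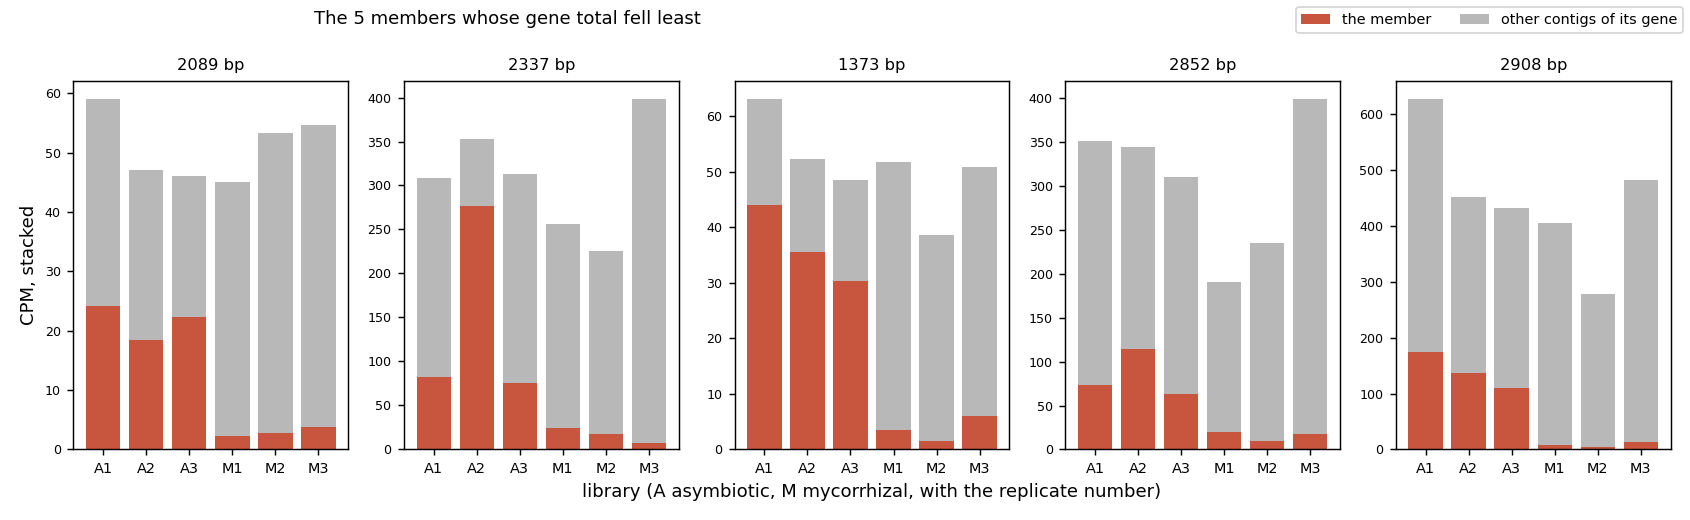
CPM per library for the 5 lower but kept contigs whose gene total fell least, stacked with the summed CPM of the other contigs of the gene. Bars are single libraries, A for asymbiotic and M for mycorrhizal with the replicate number. The coloured part shrinks in all 3 mycorrhizal libraries of each panel, while the gene totals of the 2 groups overlap.

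By reads per length, the member was the leading contig of its gene in both kinds of protocorm for 18 of the 56. It led in asymbiotic protocorms alone for 18, in mycorrhizal ones alone for 1 and in neither for 19. Where a member lost the lead, another contig of its gene had fallen less or risen, which also holds up the gene total. Of the 18 leading in asymbiotic protocorms alone, 17 had gene totals without the 3-fold gap, in part by construction. One is the contig of 1119 bp, the most even of all 74 among asymbiotic libraries, with 270.5, 281 and 271 CPM and a coefficient of variation of 2.13%. It had 78.1, 39.5 and 52.3 CPM in mycorrhizal libraries, and 99.9% of its reads were unique. Its gene went from 369 ± 52.6 to 151 ± 40.6 CPM (SD, n = 3 each). A contig of 933 bp led that gene in mycorrhizal protocorms, at 80.2, 49.1 and 85.1 CPM, after 130, 49.8 and 46.1 CPM in asymbiotic ones. The leading contig of the mycorrhizal libraries was thus not itself higher there, as its groups overlapped.

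In 3 cases the contig that led the gene in mycorrhizal protocorms differed in length from the member by 1 bp. The member of 3803 bp had 355, 356 and 399 CPM in asymbiotic and 108, 93.5 and 26.6 CPM in mycorrhizal libraries. Its partner of 3804 bp had 480, 533 and 459 CPM in asymbiotic and 388, 352 and 557 CPM in mycorrhizal libraries, so that its groups overlapped. Unique reads made up 10.4% of the total of the first and 11.0% of that of the second. As unique reads, not scaled for depth, the member had 3227, 3507 and 4422 reads in asymbiotic and 2121, 2522 and 598 in mycorrhizal libraries. Its partner had 4325, 5218 and 5014 against 7566, 8923 and 12827. The mycorrhizal libraries were deeper, so nothing is read from the partner's higher counts there. Scaled to unique totals, the member's highest mycorrhizal value was 0.422 of its lowest asymbiotic one, so it lost the 3-fold gap. The member of 2070 bp went from 40.7 ± 5.00 to 8.74 ± 0.985 CPM (SD, n = 3 each). Its partner of 2071 bp had 878, 894 and 911 CPM in asymbiotic and 399, 468 and 292 CPM in mycorrhizal libraries. The member of 1628 bp went from 12.6 ± 2.90 to 3.01 ± 0.401 CPM (SD, n = 3 each). Its partner of 1629 bp had 5.00, 9.30 and 7.31 CPM in asymbiotic and 2.82, 3.89 and 2.82 CPM in mycorrhizal libraries. Both partners were thus lower without overlap, though by less than their members.

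How far the values rest on reads that belong to 1 contig alone differed widely. A median of 19.0% of a member's reads were unique, against 33.7% among the 9055 contigs at both floors without the 3-fold gap. Under 10% were unique in 29 of the 74 and over 90% in 18, while 3 members, of 1183, 1251 and 2070 bp, had no unique read at all. The first 2 of these lay in 1 gene of 6 contigs without any unique read, and kept 18.3% and 18.5%. The most abundant members had mostly unique reads, and 84.9% ± 0.248 of all reads on the 74 contigs were unique in asymbiotic and 79.5% ± 0.711 in mycorrhizal libraries (SD, n = 3 each). In mycorrhizal replicate 3 the median member had 6.95% unique reads, against 21.0% and 20.9% in the other 2 mycorrhizal libraries. Among the 40 members whose gene total did not have the gap, the median was 3.94%, 4.10% and 4.91% in asymbiotic replicates 1 to 3. It was 1.47%, 2.15% and 0% in mycorrhizal replicates 1 to 3, lower throughout. The part of read sharing in the falls of these 40 was not tested beyond the counts on unique reads.

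Of the 74 contigs, 59 had at least 30 unique reads in every asymbiotic library. On unique reads, scaled to the unique total of each library, 47 of these kept the 3-fold gap. Another 11 had lost the gap with no overlap between the groups, and in 1, of 3008 bp, the groups overlapped. Among the 8190 contigs at both floors with as many unique reads, 1.73% had the gap and 21.4% were lower without overlap on unique reads. The median level kept by the 59 was 12.5% on unique reads and 16.1% on total reads. All 18 contigs that were alone in their gene kept the gap, as did 13 of the 15 whose whole gene fell and 16 of the 26 whose gene did not fall by the gap. Unique reads are part of total reads, so these counts describe the same libraries and are no separate test.

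**Figure D5:**
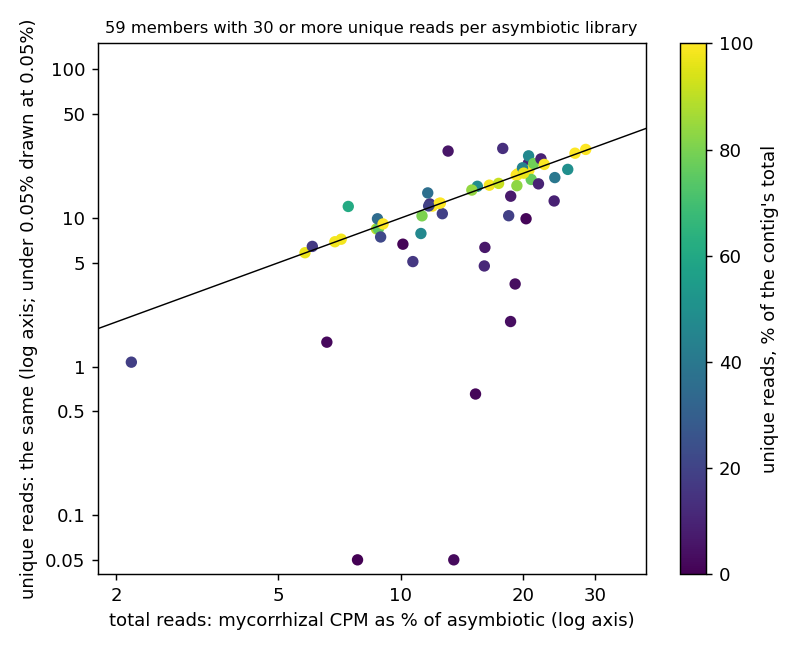
Level kept in mycorrhizal protocorms, in percent of the asymbiotic level, on unique against total reads for the 59 contigs with at least 30 unique reads in each asymbiotic library. Axes are logarithmic, the line marks equal percentages and the colour gives the percentage of a contig's reads that are unique. Contigs with mostly unique reads lie near the line, and those with few scatter to both sides, some far below it. Values under 0.05% are drawn at 0.05%.

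Replicates varied more in the mycorrhizal than in the asymbiotic group. The median coefficient of variation of the 74 contigs was 15.0% among asymbiotic and 33.2% among mycorrhizal libraries, and 54 of the 74 varied more in the latter. The contigs without the 3-fold gap at the same floors had medians of 16.2% and 34.9%, so this difference in spread was shared by contigs that were not lower. Asymbiotic replicate 1 was the lowest asymbiotic library for 42 of the 74, or 56.8%, against 34.1% of the 9055. Mycorrhizal replicate 1 was the highest mycorrhizal library for 33, or 44.6%, against 26.8% of the 9055. Mycorrhizal replicate 3 was the lowest for 30, or 40.5%, close to the 40.8% of the 9055. The widest mycorrhizal spread was that of the contig of 1656 bp, with 1.96, 3.63 and 12.5 CPM after 63.3, 131 and 81.5 CPM in asymbiotic libraries. The contig of 797 bp was also uneven there, with 12.0, 3.07 and 23.7 CPM after 78.2, 92.8 and 82.7 CPM, and its log2 ratio went from -2.71 to -3.49 without mycorrhizal replicate 3. The contig of 306 bp, the shortest of the 74, was by contrast even among mycorrhizal libraries, with 7.58, 7.08 and 8.05 CPM after 37.2, 27.6 and 37.9 CPM. The former was lowest in mycorrhizal replicate 2 and highest in replicate 3, while the latter differed little between them. Among asymbiotic libraries the contigs of 2819 and 2716 bp varied little, by 3.05% and 3.16%, and that of 1535 bp varied by 41.1%, with 47.7, 21.3 and 29.5 CPM. Such spread touches the size of its fall but not the order of the groups, which the choice fixed.

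Which contigs counted as kept depended on mycorrhizal replicate 3 above all. Besides the 74, another 145 contigs met the length, the asymbiotic floor and the 3-fold gap, but were under 1 CPM in at least 1 mycorrhizal library. Mycorrhizal replicate 3 was under 1 CPM in 136 of these, the only such library in 69, and without any read in 66. Mycorrhizal replicates 1 and 2 were under 1 CPM in 56 and 69 of the 145 and without a read in 11 and 13. The contigs under the floor were shorter than the 74, with a median of 884 bp against 1382 bp, and were read less in asymbiotic protocorms, at a median of 32.0 against 50.7 RPKM. CPM is not scaled to length, so short or little read contigs drop under 1 CPM more readily. These differences thus follow in part from the floor. Among the 74, the contig of 1477 bp was closest to the floor, with 6.18, 6.01 and 1.02 CPM in mycorrhizal libraries, the last of them from replicate 3. Those of 583 and 811 bp followed.

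The 3-fold gap is an edge within a continuous range. Just inside it, a contig of 460 bp had a highest mycorrhizal value of 21.1 CPM and a lowest asymbiotic value of 63.4 CPM, 33.3% of it. Contigs of 1645, 897, 1044 and 1974 bp were next, at 33.1%, 33.1%, 33.1% and 33.0%. Just outside, a contig of 3109 bp was at 33.6%, with 286, 531 and 363 CPM in asymbiotic and 7.16, 96.1 and 51.3 CPM in mycorrhizal libraries. It kept 13.1% of its mean level, less than many contigs inside the edge. Contigs of 1448, 2243, 1321 and 821 bp followed at 33.7%, 33.7%, 34.1% and 34.2%. The 74 made up 0.811% of the 9129 contigs at both floors. With the groups exchanged in the same rule, 333 contigs of 8745 at the exchanged floors were higher in mycorrhizal protocorms.

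In edgeR's quasi-likelihood test over 93242 contigs, 0.249% were called lower in mycorrhizal protocorms at a Benjamini-Hochberg adjusted p under 0.05. Among the 74 contigs 51 were called lower, and in 12.5% of all contigs tested every mycorrhizal CPM lay below every asymbiotic CPM. The contigs were chosen on the same contrast, so nothing is read from these counts. Without asymbiotic replicate 2, 24 of the 74 were called, beside 0.0824% of all contigs tested. Without mycorrhizal replicate 3, 65 were called, beside 0.631%. Without both libraries, a choice made after seeing the data, 4 were called, beside 0.0136%.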

How the data were processed

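The authors deposited 1 table per library with, per the file headers, the unique and the total read count of each contig and its RPKM. Counts are whole numbers and not normalized. The RPKM values deposited by the authors gave each contig's length from total reads, within 0.01 bp of a whole number in every library. Per the series' design text, a reference was assembled with Trinity from asymbiotic reads, and reads of 150 bp from all libraries were aligned to it. The sources used here name no aligner, no counter and no use of strand.

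CPM was computed from total reads and their sum in each library, and reads were summed per Trinity gene by identifier. Group means carry the SD of 3 libraries. The test was edgeR's quasi-likelihood test (edgeR 4.0.16, limma 3.58.1, DESeq2 1.42.0, R 4.3.3) with TMM scaling, filterByExpr and robust fits, without a replicate block. Figures were drawn with matplotlib 3.10.9. Described contigs are those of highest asymbiotic CPM, deepest fall, nearest the 3-fold edge, extreme spread, lowest or highest mycorrhizal level, most members per gene and least lowered gene total, and the contigs of 3008, 2070 and 1628 bp and the other contigs of a member's gene were chosen after their values were seen. The contigs and lists were chosen with earlier results of these data known. In these libraries 3 reads correspond to 0.0139 to 0.0341 CPM. No pair of libraries within a group agreed within sampling noise (chi-square divided by its degrees of freedom at least 66.5). Alternatives covered read type, scaling, floors, gap size, the test and leaving out libraries.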

Additional observations from a re-analysis of the deposited data

How the results depend on the processing

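The number of contigs that met the rule was 46 on unique reads, 30 of them among the 74, and 44 Trinity genes met it on summed reads. With a 2-fold, 4-fold or 5-fold gap it was 279, 35 or 22, and leaving out 1 library gave 98 to 220. Without asymbiotic replicate 2 and mycorrhizal replicate 3 together, chosen after seeing the data, it was 305. Other floors, lengths and scalings gave 57 to 86. CPM scaled by TMM factors kept 63 of the 74 and by DESeq2 size factors 66. The median log2 ratio of mycorrhizal to asymbiotic level was -2.68. It was -3.01 on unique reads, over the 63 contigs with unique reads in both groups, and -2.81 with DESeq2 scaling, and leaving out 1 library gave -2.75 to -2.59. The share of reads on the 74 was 5.59% and 0.517% on unique reads in asymbiotic and mycorrhizal libraries. Leaving out the 2 most abundant members, also chosen after seeing the data, gave 1.38% and 0.173%. Without single libraries it was 3.49% to 3.78% and 0.345% to 0.355%. The count of 34 contigs whose gene total had the 3-fold gap was 24 per Trinity cluster, 37 on unique reads and 34 to 38 without single libraries. Described members without a unique read in the mycorrhizal libraries have no log2 ratio on unique reads, so that alternative is missing for them. Others had very few, such as those of 797 and 2337 bp with 6 and 1 unique reads over the mycorrhizal libraries. All 344 alternatives formed for the 35 described members kept the direction, which the choice of members largely fixes. Of the 344, 8 moved past the spread between replicates. One was the contig of 2224 bp with DESeq2 scaling. The others were on unique reads, where log2 ratios went from -2.71 to -7.26 at 797 bp, -3.16 to -7.39 at 2337 bp, -2.42 to -5.64 at 2852 bp, -2.39 to -4.80 at 1645 bp, -3.93 to -6.10 at 1656 bp, -5.52 to -6.55 at 684 bp and -2.49 to -1.77 at 1535 bp.

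Contigs called lower numbered 232 in the edgeR test, 2176 with DESeq2, 148 with limma-voom, 841 without a filter, 613 on unique reads, 100 to 721 without single libraries and 16 without both libraries named above. Of the 74, 51 were called lower in the edgeR test, beside 0.249% of all contigs tested. Limma-voom called 23, beside 0.159%. On unique reads 33 of 68 tested were called, beside 0.909% of 67428 contigs. Without single libraries it was 24 to 65, beside 0.0824% to 0.631%, and without both 4, beside 0.0136%. With the replicate block 43 of the 74 were called, beside 259 contigs or 0.278%. The members were chosen on the same contrast, so nothing is read from these counts. Same-numbered libraries did not deviate together, with correlations of -0.07, 0.04 and -0.11 across contigs for replicates 1 to 3, so the numbers were not taken as pairs, and the highest correlation, 0.11, joined asymbiotic replicate 1 with mycorrhizal replicate 3. Over the contigs at both floors the median log2 ratio was -0.05 in plain and -0.11 in TMM-scaled CPM. The cause of these differences was not tested.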
